A study of Mus musculus with 14 samples.

Results

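The genes described here encode 7 components of the Hedgehog signalling pathway (Shh, Dhh, Hhip, Ptch1, Gli1, Gli2 and Gli3), and the measurement is histone H3 lysine 27 trimethylation (H3K27me3) over them in mouse embryonic stem cells (mESCs). A peak of the deposited list was assigned to a gene when it lay within 10 kb of the gene body in RefSeq (mm10), which gave 39 of 74458 peaks. Shh had 10 of these peaks, Gli2 8, Ptch1 7, Dhh 5, Hhip and Gli1 4 each, and Gli3 1. H3K27me3 was profiled by Cut&Tag, in which an antibody directs a transposase to cut and tag the DNA beside a histone mark, in 3 mESC genotypes, each with a deletion of 1 anchor of a long-range Polycomb loop. Of the 7 H3K27me3 libraries in the table, 3 came from the Hoxa deletion (chromosome 6), 2 from the Wnt6 deletion (chromosome 1) and 2 from the Hmx1 deletion (chromosome 5). The study describes the deletions as homozygous and made by CRISPR-Cas9 in G4 cells, a hybrid line of the 129/Sv and C57BL/6 strains, and all cells were kept with leukaemia inhibitory factor (LIF) on CD1 feeders. It speaks of a clone for each deletion, so the deletion and the clone cannot be told apart, and each deletion was compared with the other 2 because no unedited cells are among these libraries. The labels do not say that replicates were separate cultures, so the spread between libraries may be technical.

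Hedgehog ligands are secreted proteins that bind the receptor Patched. Without ligand, Patched holds the membrane protein Smoothened inactive and Gli proteins are processed into repressors. With ligand, Gli proteins turn on target genes, among them Ptch1, Hhip and Gli1, and so pattern the limb and the neural tube. H3K27me3 is laid down by Polycomb repressive complex 2 (PRC2) over silent developmental genes in pluripotent cells, often at CpG-rich starts.

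The libraries held 6016500 to 36563541 counts over all peaks. Levels are given as CPM (counts in a library scaled to a common total) with TMM factors, and where genes are compared, as CPM per kb of peak. The mark tends to be low over genes in use. Of 9 pluripotency genes checked, 7 had a peak, at a median of 7.14 CPM per kb, whereas Tdgf1 and Lin28a had none. Of the 7, 3 lay above the median of all genes with a peak (9.36 CPM per kb): Sox2 (18.5), Esrrb (17.7) and Klf4 (10.2). Markers of fibroblasts, which the feeder cells could bring, had peaks at 6 of 8 genes with a median of 20.4 CPM per kb. Col3a1 and Lum had none, and Dcn (7.89) and Postn (3.10) lay below the median of all genes with a peak. The summed level of the 6 ran from 109 to 114 in the Hoxa, 108 to 117 in the Wnt6 and 117 to 119 in the Hmx1 libraries. These are bulk libraries, in which fewer cells with the mark and less of the mark per cell cannot be told apart.

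The starts of Hhip and Gli2 are shown because these genes differed between deletions, and that of Gli3 because its level did not differ detectably. Each line holds the 250 bases before the start of the gene from RefSeq (GRCm38.p6), read 5′ to 3′ on the strand of the gene, with CpG dinucleotides in capitals. The regions are chr8:80058009-80058258 (minus strand), chr1:119053620-119053869 (minus strand) and chr13:15463473-15463722 (plus strand).
Hhip: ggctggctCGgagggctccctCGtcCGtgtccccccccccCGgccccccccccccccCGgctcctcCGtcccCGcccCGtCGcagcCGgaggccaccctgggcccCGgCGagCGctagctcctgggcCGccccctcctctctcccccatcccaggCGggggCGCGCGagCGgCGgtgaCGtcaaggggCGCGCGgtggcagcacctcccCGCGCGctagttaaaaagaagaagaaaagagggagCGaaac
Gli2: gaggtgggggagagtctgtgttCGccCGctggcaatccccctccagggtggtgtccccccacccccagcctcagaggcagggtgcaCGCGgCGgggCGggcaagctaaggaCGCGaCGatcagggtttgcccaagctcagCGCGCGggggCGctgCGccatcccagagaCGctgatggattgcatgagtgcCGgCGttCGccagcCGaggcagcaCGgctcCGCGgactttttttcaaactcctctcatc
Gli3: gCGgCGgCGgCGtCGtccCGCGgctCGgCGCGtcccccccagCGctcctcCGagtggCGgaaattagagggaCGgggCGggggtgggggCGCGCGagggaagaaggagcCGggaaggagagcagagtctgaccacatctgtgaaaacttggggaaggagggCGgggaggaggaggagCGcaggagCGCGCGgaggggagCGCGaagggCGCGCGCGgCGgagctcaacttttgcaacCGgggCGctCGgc
These windows held 28 CpGs at Hhip, 22 at Gli2 and 34 at Gli3. Promoter sequences were matched for 5 of the 7 genes (Dhh, Hhip, Ptch1, Gli2 and Gli3), and Shh and Gli1 are named only.

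Over the whole 300 bases of each promoter, which run 50 bases past the start, the number of CpGs was 12 at Dhh, 28 at Gli2, 30 at Hhip, 39 at Gli3 and 47 at Ptch1, against a median of 7 over 32851 mouse promoters. All 5 promoters overlapped an H3K27me3 peak. In the genome as a whole 43.9% of promoters did so, and the share rose with CpG number, from 14.7% with 0 to 9 CpGs to 70.4% with 10 to 19, 86.6% with 20 to 29, 91.9% with 30 to 39 and 92.9% with 40 or more. The 5 promoters thus lay in classes where a peak is common. CpG number and level did not go together within the 5: the peak over the Gli2 start averaged 9.29 CPM over the 7 libraries and that over the Hhip start 97.1 CPM, with nearly the same number of CpGs. The motif GACCACCCA, which Gli proteins are known to bind, was searched on both strands and found in 0 of the 5 promoters and in 83 of all 32851 (0.253%).

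All 7 genes had the mark within 10 kb, and their levels spanned a wide range. Over the 7 libraries the mean level was 62.2 ± 2.79 CPM per kb (SD, n = 7) at Shh, 40.1 ± 1.61 at Ptch1, 37.8 ± 2.95 at Gli3, 35.5 ± 2.22 at Dhh, 34.7 ± 9.02 at Hhip, 16.8 ± 1.16 at Gli1 and 7.64 ± 2.06 at Gli2. The median over the 30964 genes with a peak within 10 kb was 9.36 CPM per kb. Shh stood at the 97.9th percentile of these genes, Ptch1, Gli3, Dhh and Hhip between the 88.3rd and the 91.2nd, Gli1 at the 71.6th and Gli2, below the median, at the 38.95th. Shh was above Ptch1, Hhip above Gli1, and Gli1 above Gli2 in 7 of 7 libraries with no overlap of their ranges. The order of the middle group was less firm, with Ptch1 above Gli3 in 6 of 7 libraries and Dhh above Hhip in 3 of 7, and Gli3 was above Dhh in 7 of 7 with overlapping ranges.

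**Figure D1:**
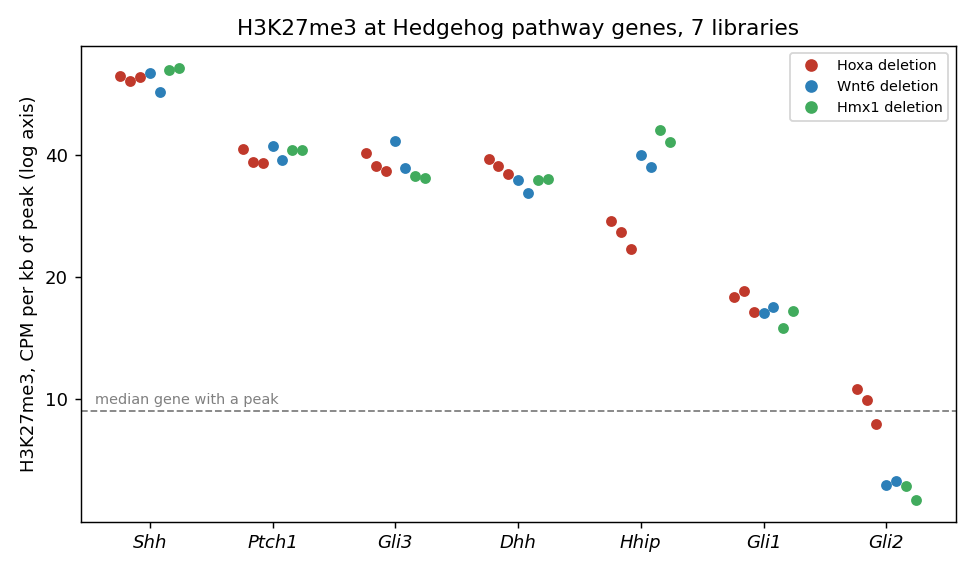
H3K27me3 per kb of peak (CPM per kb, log axis) at each of the 7 Hedgehog genes, 1 point per library, coloured by deletion, with the median gene with a peak as a dashed line. Shh lies above 57 CPM per kb in every library, and the 3 Hoxa deletion libraries lie apart from the other 4 at Hhip (lower) and at Gli2 (higher).

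Shh, the ligand that patterns limb and neural tube, had the mark at many places along its body. Its 10 peaks covered 7.30 kb, and 6 of them lay inside the gene of 10.3 kb. The strongest (chr5:28457884-28459233) averaged 125.8 CPM, above 98.0% of all peaks, and held 27.7% of the signal of the gene. It read 123, 118 and 132 CPM in the Hoxa, 125 and 111 in the Wnt6, and 140 and 132 in the Hmx1 libraries, so the groups overlapped. At the ends of the gene, peaks of 20.02 CPM (chr5:28455986-28456597) and 32.9 CPM (chr5:28466588-28467094) were lower, and the second also overlaps the neighbouring gene 9530036O11Rik.

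Dhh, the ligand known from testis and peripheral nerve, carried a pair of wide peaks at its start. The peak over the start (chr15:98896935-98898765) averaged 72.4 CPM and its neighbour within the gene (chr15:98893907-98896556), 1984 bp further on, 143.8 CPM. The neighbour was the strongest peak of all 39 and held 61.8% of the signal at Dhh. The start peak read 79.3, 81.8 and 75.9 CPM in the Hoxa, 71.2 and 65.7 in the Wnt6, and 61.2 and 72.1 in the Hmx1 libraries. All 3 Hoxa values were thus the highest, with a log2 fold change of 0.22 (SE 0.0891) that missed the threshold (edgeR adjusted p = 0.118).

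Hhip, a membrane protein that binds Hedgehog ligands and dampens the pathway, and Ptch1, the receptor, differed in how the mark was spread. At Hhip, a single peak over the start (chr8:80057062-80058801) held 94.6% of the signal, and the other 3 averaged 1.20 to 3.04 CPM. At Ptch1 the strongest peak (chr13:63572116-63574502) averaged 128 CPM and lay 6381 bp before the start in the promoter table, at the upper edge of the gene body. The peak over that start (chr13:63565010-63566065) averaged 21.3 CPM. The strongest Ptch1 peak read 142, 130 and 119 CPM in the Hoxa, 135 and 121 in the Wnt6, and 119 and 131 in the Hmx1 libraries, which overlap throughout.

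Among the Gli transcription factors, Gli3, known mainly as a repressor, had 1 peak, 2427 bp wide over its start (chr13:15462748-15465175), which also overlaps Gm6556. It read 98.2, 91.1 and 88.3 CPM in the Hoxa, 105 and 89.9 in the Wnt6, and 85.9 and 84.9 in the Hmx1 libraries. Gli1, an activator that is itself a target of the pathway, had almost no mark of its own. Its strongest peak (chr10:127325724-127328009, 50.2 CPM) held 78.8% of the signal counted for it but lies over the neighbour Arhgap9, and the only peak in the gene body (chr10:127339060-127339295) averaged 1.42 CPM. With peaks in the gene body alone, the level of Gli1 was 6.04 CPM per kb in place of 16.8. Gli2, the main activator downstream of Smoothened, had 8 weak peaks within 10 kb, 6 of them inside its body of 220 kb. By the mean over the 7 libraries the strongest lay over its start (chr1:119053386-119054017), a rank that rests on the Hoxa libraries. That peak read 6.28 and 5.93 CPM in the Wnt6 and 7.27 and 6.14 in the Hmx1 libraries. The peak past the far end (chr1:118825026-118826288) read 8.13 and 9.35 CPM in the Wnt6 and 7.10 and 7.12 in the Hmx1 libraries.

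**Figure D2:**
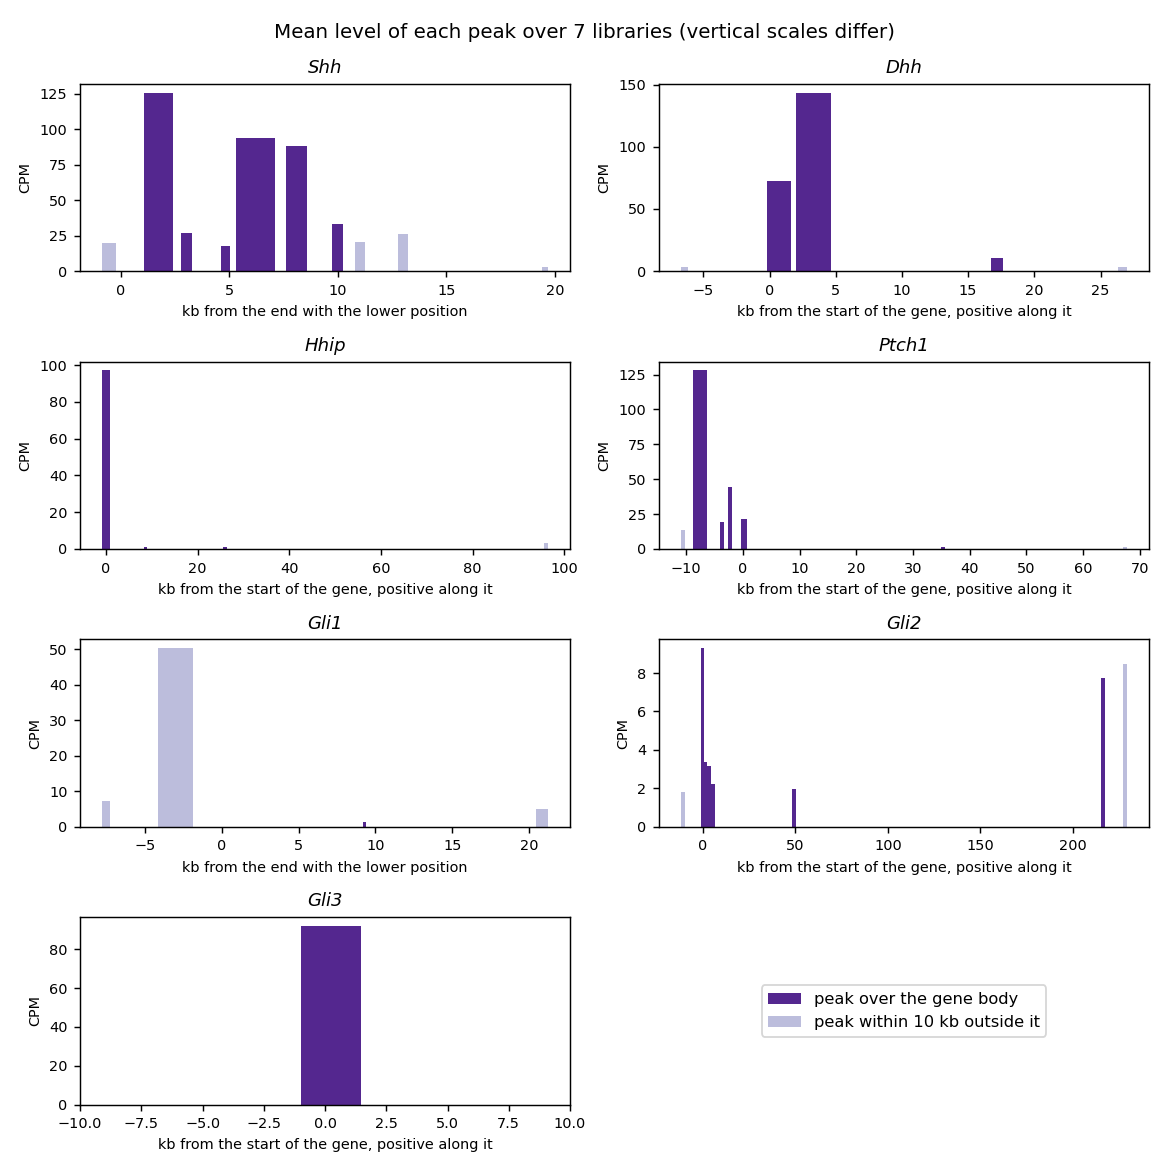
Mean level of each peak over the 7 libraries (CPM) by its distance (kb) from the gene start, or from the end with the lower position for Shh and Gli1, whose start is not in the promoter table. Bars have the width of the peak, or a minimum width where that would be too thin to see, and show broad cover of Shh, a single start peak at Hhip and Gli3, and levels under 10 CPM throughout Gli2.

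Against the other 2 deletions, the Hoxa deletion libraries had more H3K27me3 at Gli2 and less at Hhip. With counts summed per gene, 2 of the 7 genes passed an edgeR adjusted p of 0.05, 1 higher and 1 lower. The background was wide, since 17.9% of 30959 tested genes passed in this comparison (9.76% higher, 8.12% lower), and 2 of 7 is not far from it. The values of these 2 genes follow. They were picked by this test on the same libraries, so the distance between their libraries is no separate support.

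Summed over its peaks, Gli2 read 52.8, 49.5 and 43.2 CPM in the 3 Hoxa deletion libraries. It read 30.6 and 31.4 CPM with the Wnt6 deletion, and 30.4 and 28.1 CPM with the Hmx1 deletion. Every Hoxa library was above every other library. The means were 48.5 ± 4.85 (SD, n = 3), 31.0 ± 0.577 (n = 2) and 29.3 ± 1.61 (n = 2) CPM, and the log2 fold change was 0.64 (SE 0.0926, 95% interval 0.45 to 0.83, edgeR adjusted p = 2.14e-06). The change kept its direction and its call in every refit tried, over which the log2 fold change ran from 0.58 to 0.82.

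Peaks near the start of Gli2 were among those that rose. The start peak read 14.2, 12.5 and 12.6 CPM in the Hoxa, 6.28 and 5.93 in the Wnt6, and 7.27 and 6.14 in the Hmx1 libraries, with a log2 fold change of 1.06 (SE 0.147, edgeR adjusted p = 8.29e-07). The peak at chr1:119049962-119050530, 3089 bp into the gene, read 5.17, 4.28 and 4.06 CPM against 1.54 to 2.52 CPM in the other 4 libraries (log2 fold change 1.002, SE 0.228, edgeR adjusted p = 0.00205). The peak at chr1:119047940-119048195, 5424 bp into the gene, read 4.11, 2.64 and 3.16 CPM against 1.03 to 1.97 CPM (log2 fold change 1.08, SE 0.277, edgeR adjusted p = 0.00737). At all 3, every Hoxa library read above every other library. The peak 5424 bp in rests on 35, 69 and 49 counts in the Hoxa, 10 and 54 in the Wnt6, and 8 and 50 in the Hmx1 libraries. Against the Hmx1 deletion alone it lost its call (0.84, edgeR adjusted p = 0.140). The start peak and the peaks 3089 and 5424 bp in were the only 3 of the 39 called higher at an absolute log2 fold change over 1. At Hhip, 1 more was called lower. The background of that rule was 1.55% of 74441 tested peaks (0.566% higher, 0.983% lower), and the 3 belong to 1 gene, so they are not separate observations of the pathway.

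With no minimum on the fold change, 8 of the 39 peaks passed against a background of 8.53% of peaks (4.32% higher, 4.2% lower). The 6 that were higher were 5 of the 8 Gli2 peaks and 1 peak over Arhgap9 near Gli1 (chr10:127322124-127322624, log2 fold change 0.52, SE 0.165, edgeR adjusted p = 0.0362). The call on the Arhgap9 peak was lost in most refits, among them DESeq2 (adjusted p = 0.0696), chromosome medians removed (edgeR adjusted p = 0.0917) and without replicate 3 of the Hoxa deletion (0.36, edgeR adjusted p = 0.270). The further Gli2 peaks were at chr1:119051941-119052359 (0.79, SE 0.222, edgeR adjusted p = 0.0162) and at the far end of the gene, chr1:118837066-118838032 (0.53, SE 0.154, edgeR adjusted p = 0.0194). The far peak kept its size but lost its call against the Wnt6 deletion alone (edgeR adjusted p = 0.0914), against the Hmx1 deletion alone (0.0798), and without replicate 1 or 3 of the Hoxa deletion or replicate 2 of the Wnt6 or Hmx1 deletion (edgeR adjusted p from 0.0577 to 0.0904). The peak at chr1:119051941-119052359 lost its call without replicate 2 of the Hoxa deletion (0.53, edgeR adjusted p = 0.304), without replicate 2 of the Hmx1 deletion (0.70, edgeR adjusted p = 0.0871) and against the Wnt6 deletion alone (0.63, edgeR adjusted p = 0.147). The remaining 3 Gli2 peaks had log2 fold changes of 0.19, 0.89 and 0.32, and their libraries overlapped between groups. Without replicate 1 of the Hoxa deletion, 0 of the 39 peaks were called higher at the fold minimum: the start peak came to a log2 fold change of just under 1 with its p still past the threshold, the peak 3089 bp in came to 0.91 and missed only the fold minimum (edgeR adjusted p = 0.0179), and the peak 5424 bp in came to 0.92 and missed both (edgeR adjusted p = 0.0623). Without replicate 1 of the Wnt6 deletion, 1 was.

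**Figure D3:**
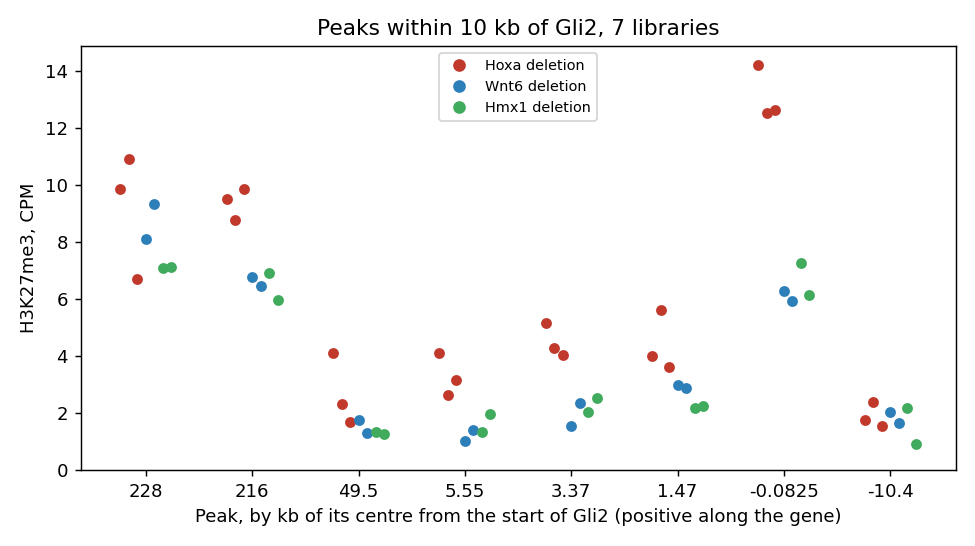
H3K27me3 (CPM) at the 8 peaks within 10 kb of Gli2 in each of the 7 libraries, ordered by position and labelled by the distance of the peak centre from the gene start (kb). At the start peak the Hoxa deletion libraries read 12.5 to 14.2 CPM and the other 4 libraries 5.93 to 7.27 CPM.

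Farther from the gene the median values were smaller than the value of Gli2, but they did not fall further with distance. Of 11 peaks between 10 and 100 kb from Gli2, 0 passed the edgeR threshold in the Hoxa comparison (adjusted p under 0.05, no fold minimum). Their median log2 fold change was 0.17, and 3 had an unadjusted p under 0.05, beside 20.8% of all peaks. Of 36 between 100 and 500 kb, 1 passed and 8 had an unadjusted p under 0.05 (median 0.21, range -0.26 to 1.17). The median over all tested peaks of chromosome 1 was -0.01. Among 9672 other genes within 25% of the level of Gli2, the median log2 fold change in this comparison was 0.05, and 8.995% were significantly higher. Their values ran from -0.50 to 0.53 between the 5th and the 95th percentile. Gli2, at 0.64, lay above that range, but it is singled out here because it passed in this comparison. A fit with offsets that follow the level of each gene, chosen after the data were seen, left Gli2 at 0.58 (edgeR adjusted p = 3.20e-05). Of the 7 pluripotency genes with a peak, 2 were also higher in the Hoxa libraries, beside 9.76% of all genes. They were Klf4 (0.56, SE 0.0884) and Tfcp2l1 (0.79, SE 0.176). Pou5f1, Nanog, Sox2 and Esrrb had log2 fold changes of 0.07 to 0.13 and Zfp42, on chromosome 8, one of -0.59 (SE 0.242, edgeR adjusted p = 0.0877), none of which passed, and the summed level of the 7 pluripotency genes with a peak was 76.3 to 78.5 CPM per kb there against 65.3 to 67.1 in the Wnt6 and 68.5 to 68.7 in the Hmx1 libraries. Whether this bears on Gli2 was not tested.

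Hhip moved the other way. It read 81.3, 76.3 and 69.3 CPM in the Hoxa, 118 and 110 in the Wnt6, and 136 and 127 in the Hmx1 libraries. The 3 groups did not overlap, and the Hoxa libraries were the lowest. The means were 75.6 ± 6.06 (SD, n = 3), 114 ± 5.28 (n = 2) and 132 ± 6.31 (n = 2) CPM, and the log2 fold change of the Hoxa deletion was -0.74 (SE 0.0711, 95% interval -0.88 to -0.59, edgeR adjusted p = 5.53e-10). The start peak fell by 0.70 on the log2 scale (SE 0.0905, edgeR adjusted p = 1.52e-07). A weak peak within the gene (chr8:80049230-80049577) had a log2 fold change of -1.55 (SE 0.380, edgeR adjusted p = 0.00481), on 2, 24 and 9 counts in the Hoxa libraries against 16 and 81 in the Wnt6 and 8 and 57 in the Hmx1 libraries.

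The whole of chromosome 8, where Hhip lies, was lower in the Hoxa libraries. It held 5.45 to 5.49% of all counts there and 7.81 to 7.95% in the other 4 libraries. Over its 5579 tested peaks the median log2 fold change was -0.59, and 40.8% were significantly lower. The Hhip start peak was ordinary among these, with 36.1% of the peaks of the chromosome below it, and the weak inner peak was extreme, with 1.11% below it. When the median of each chromosome was removed from each library, Hhip had a log2 fold change of -0.19 and no longer passed (edgeR adjusted p = 0.0708), nor did its start peak (-0.14, adjusted p = 0.468) or the inner peak (-0.99, adjusted p = 0.145). Gli2 stayed at 0.64 in that fit (edgeR adjusted p = 3.48e-06), and the chromosomes of the other members had medians between -0.01 and 0.03. The number of copies of chromosome 8 in these cells was not tested, and fewer copies and less of the mark per copy cannot be told apart at Hhip.

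**Figure D4:**
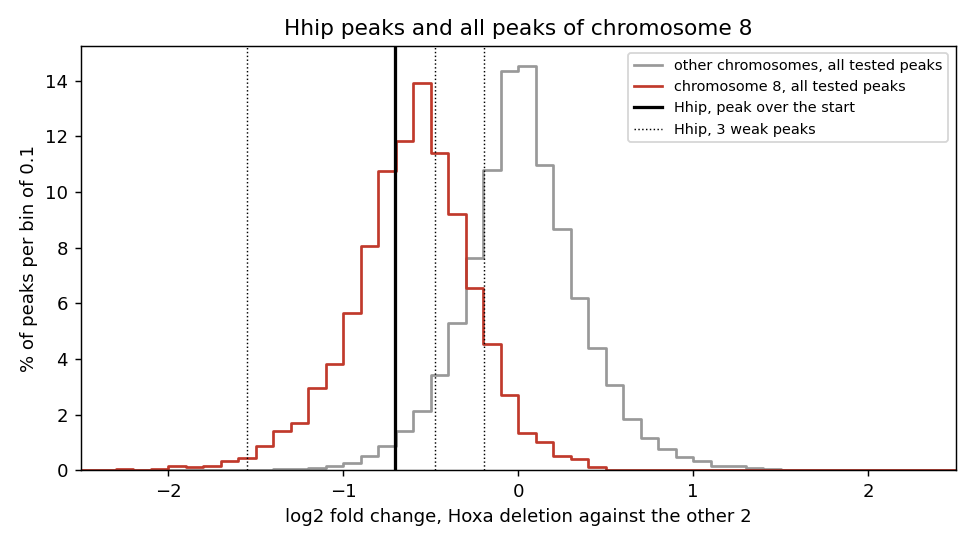
Distribution of the log2 fold change of the Hoxa deletion against the other 2 deletions over all tested peaks of chromosome 8 (red) and of the other chromosomes (grey), as the % of peaks in bins of 0.1, with vertical lines at the 4 Hhip peaks. The chromosome 8 curve is centred near -0.59, and the Hhip start peak (-0.70) lies within its main body.

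The other 5 genes did not pass in the Hoxa comparison, and their intervals were narrow. The log2 fold change was -0.06 at Shh (95% interval -0.17 to 0.05), 0.10 at Dhh (-0.02 to 0.21), -0.09 at Ptch1 (-0.21 to 0.02), 0.07 at Gli1 (-0.08 to 0.23) and -0.02 at Gli3 (-0.16 to 0.12), with edgeR adjusted p from 0.292 to 0.865. A change as large as that at Gli2 lay outside all 5 intervals. That of Gli1 rests mainly on the peak over Arhgap9. For the only peak in the Gli1 body the log2 fold change was -0.14 (95% interval -0.81 to 0.54), and this wider interval holds a fall of that size. Dhh alone depended on the setting: it was called with library totals as the only scaling (0.14, edgeR adjusted p = 0.0459) and with the offsets that follow level (0.15, adjusted p = 0.0144).

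In the Wnt6 and Hmx1 comparisons no Hedgehog gene was called. With the Wnt6 deletion, 0 of 39 peaks passed in edgeR (background 0.0497% of peaks, and 0.0564% with no fold minimum) and 0 of 7 genes (background 0.0452%). At an unadjusted p under 0.05 there were 3 peaks and 0 genes, beside 5.20% of all peaks and 5.95% of all genes, and DESeq2 called 0 of both. With the Hmx1 deletion, 0 of 39 peaks passed in edgeR (background 0.0282%, and 0.0309% with no fold minimum) and 0 of 7 genes (background 0.0969%). At an unadjusted p under 0.05 there were 4 peaks and 3 genes, beside 8.95% of all peaks and 14.8% of all genes, and DESeq2 called 0 of both. These comparisons hold the Hoxa libraries on the other side and so share samples with the one above.

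Shh lies on the chromosome of the Hmx1 deletion, 6.91 Mb from the deleted stretch at the nearest peak, and Gli2 on that of the Wnt6 deletion, 43.9 Mb away. With the Hmx1 deletion, Shh had a log2 fold change of 0.11 (SE 0.0440, 95% interval 0.02 to 0.21, edgeR adjusted p = 0.274). Its summed level was 471 and 478 CPM there, above the 417 to 464 CPM of the other 5 libraries, a difference that did not hold after correction. With the Wnt6 deletion, Gli2 had a log2 fold change of -0.37 (SE 0.215, 95% interval -0.84 to 0.10, edgeR adjusted p = 0.841). The Hoxa libraries sit in the comparison group of this value. Set against the Hmx1 deletion alone, the Wnt6 deletion gave 0.10 at Gli2 (edgeR adjusted p = 0.818) and -0.20 at Hhip (adjusted p = 0.206). In that fit 0 of the 7 genes passed in edgeR (2 at an unadjusted p under 0.05, for which the share of all genes was not computed).

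**Figure D5:**
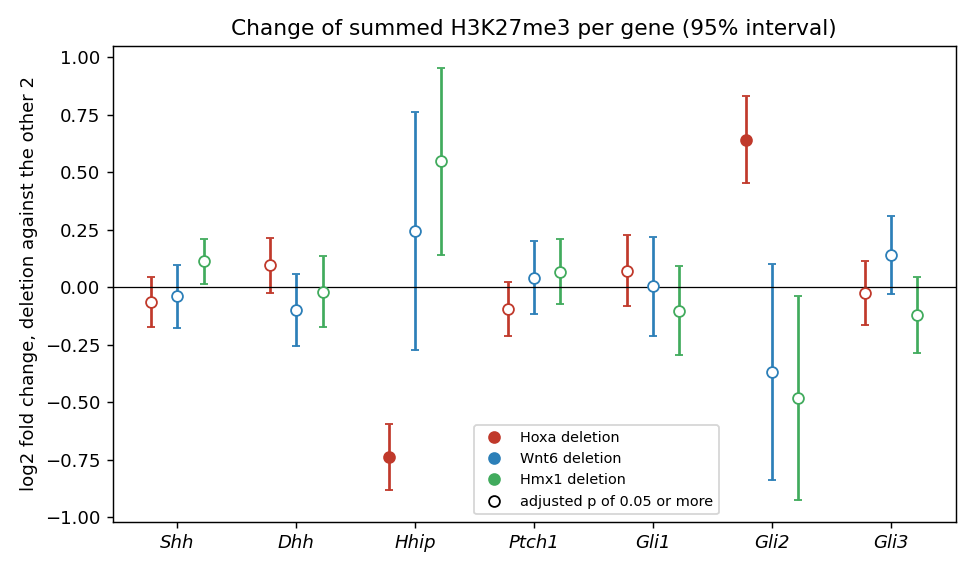
Log2 fold change of H3K27me3 summed per gene, for each deletion against the other 2, with its 95% interval, with filled points where the edgeR adjusted p is under 0.05. The 2 filled points are Hhip (-0.74) and Gli2 (0.64) in the Hoxa comparison, and the Wnt6 and Hmx1 points of these genes lie on the opposite side of 0 with wide intervals.

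Of 35 further genes of the pathway, 34 had a peak within 10 kb, with a median of 27.5 CPM per kb, and 30 lay above the median of all genes. The genes that respond to Hedgehog signals in embryonic tissues carried the most, with a median of 51.5 CPM per kb over 14 genes, 10 of them above the 90th percentile. The transcription factors Foxl1 (74.6 CPM per kb) and Foxf1 (74.0) led these, and the proto-oncogene Mycn (8.41) was lowest. The 6 genes of ligand release and processing had a median of 23.6 CPM per kb, from Ihh, the third Hedgehog ligand (62.9), to Disp1 (8.60), which releases the ligand from the cell. The 6 receptors and co-receptors had a median of 20.8 CPM per kb, with the co-receptor Gas1 (55.0) highest, and the 8 intracellular regulators with a peak one of 15.1, from the ciliary protein Kif7 (29.8) to the Gli inhibitor Sufu (8.78).

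In the Hoxa comparison 8 of the 34 passed, 3 higher and 5 lower, beside the same gene background of 17.9%. The 3 higher were all intracellular regulators, Sufu (log2 fold change 0.48, SE 0.112) and the ciliary genes Evc and Evc2 (0.41, SE 0.0997). Evc and Evc2 share the same 2 peaks and count as 1 observation. They lie on chromosome 5, the chromosome of the Hmx1 deletion. Their mean level was 17.2 CPM per kb in the Hoxa, 13.4 in the Wnt6 and 11.7 in the Hmx1 libraries. In the Hmx1 comparison their log2 fold change was -0.38 (edgeR adjusted p = 0.262). Whether a loss near the Hmx1 deletion adds to their Hoxa value was not tested. The 5 lower were all among the 14 responding genes. Foxf1 (-0.59, SE 0.0479), Foxl1 (-0.53, SE 0.0540), Hand2 (-0.59, SE 0.0592) and Sfrp1 (-0.43, SE 0.0619) lie on chromosome 8 and were near its median of -0.59, whereas the cell survival gene Bcl2 (-0.25, SE 0.0638) lies on chromosome 1. The median log2 fold change of the 34 genes was -0.03, against 0.00 over all genes tested. In the Wnt6 comparison 0 of the 34 passed in edgeR, 0 in DESeq2 and 0 at an unadjusted p under 0.05, beside 5.95% of all genes. In the Hmx1 comparison 0 passed in edgeR, 1 in DESeq2 (the co-receptor Lrp2) and 9 at an unadjusted p under 0.05, beside 14.8% of all genes. The 9 are not separate observations. Among them are Foxf1, Foxl1, Hand2 and Sfrp1 on chromosome 8, which is lower in the Hoxa libraries of the comparison group. Evc and Evc2, which share their peaks, are also among them.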

How the data were processed

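H3K27me3 Cut&Tag was measured in 7 mESC libraries with 3 deletions, and 7 IgG libraries were not analysed here. The authors deposited raw counts over a shared list of 74458 peaks, with no normalization. The submitters' processing notes name Bowtie2, Trimmomatic, SAMtools, Picard, MACS2 and deepTools and the build mm10, without versions or order; whether duplicates were removed is not given in the sources used here. A shared list favours regions that are strong in the libraries it was called on. Counts of PCR-amplified fragments are not independent molecules.

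Groups came from the sample titles. The 7 genes, the gene lists and the settings were chosen with earlier results of these data known. Text names follow a rule: all 7 genes, and of their peaks the strongest, that at the start (or at both ends where the strand was not known) and every significant one, with up to 4 examples per role of the other pathway genes. Peaks were joined to RefSeq genes (GRCm38.p6) by position. No exon annotation was used. A peak near several genes was counted for each. Deleted stretches were runs of peaks under 10% of the level in the other libraries.

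Counts per peak, and counts summed per gene over peaks within 10 kb, were fitted in R 4.3.3 with edgeR 4.0.16 (filterByExpr, TMM, glmQLFit, glmQLFTest), each deletion against the other 2 pooled, with all 7 libraries. The filter left out 17 peaks and 5 genes. P-values were adjusted over all peaks or all genes by Benjamini-Hochberg. A gene was called when this value was under 0.05, a peak when its log2 fold change also exceeded 1 in size. Standard errors came from the F statistic. Alternatives were DESeq2 1.42.0, RLE factors, library totals, other filters, a term per genotype, each other deletion alone, a replicate block, each library left out, counts reduced to the smallest library, chromosome medians removed, windows of 0 and 25 kb, other thresholds and, chosen after seeing the data, offsets that depend on abundance (limma 3.58.1, loess span 0.3). The fits were tested on simulated counts. Plots used matplotlib 3.10.9 in Python 3.11.15.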

Additional observations from a re-analysis of the deposited data

How the results depend on the processing

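Over 746 values recomputed under other settings, no value that had passed its test changed direction. In the Hoxa comparison the count of 4 called peaks became 0 with counts reduced to the smallest library and 8 with no fold change minimum, and ran from 1 to 5 with each library left out in turn. Leaving out replicate 1 of the Hoxa deletion gave 1, and leaving out the Wnt6 deletion's replicate 1 gave 2. The count of 2 called genes became 1 (Gli2) with chromosome medians removed and 0 with an absolute log2 fold change over 1 as well, and was 2 whichever library was left out. In the Wnt6 comparison the count of 0 became 4 peaks and 2 genes (Gli2 and Hhip) against the Hoxa deletion alone, and 1 gene (Hhip) with a term for each genotype. In the Hmx1 comparison it became 3 peaks and 2 genes (Gli2 and Hhip) against the Hoxa deletion alone, and 2 genes with a term for each genotype. Against the Hoxa deletion alone the comparison group itself is another, and the backgrounds given above do not apply. The share of all peaks and genes called is not given for the refits of this section. Their counts thus have no background beside them and cannot be read as an excess. With a term for each genotype Hhip kept about its size in the Wnt6 comparison (0.25 to 0.22) while its SE went from 0.237 to 0.0633.

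With the replicate number as a block, the Hoxa comparison gave 5 called peaks and 2 called genes, with Gli2 at 0.73 and Hhip at -0.67 on the log2 scale, and the Wnt6 and Hmx1 comparisons gave 0 of both. The block changed no call on a gene, and ended those on the Gli2 peak at the far end of the gene (0.49, edgeR adjusted p = 0.0762) and on the Arhgap9 peak near Gli1 (0.38, edgeR adjusted p = 0.231). Deviations of same-numbered libraries from their group means correlated between -0.04 and 0.08, and those of different-numbered libraries between -0.11 and 0.11. In a deletion with 2 libraries the deviations mirror each other, so these values cannot decide whether the replicates are paired. Replicate 1 held the fewest counts in each deletion (8656908 in Hoxa, 9982841 in Wnt6, 6016500 in Hmx1) and replicate 2 the most. Whether libraries of the same number share a preparation was not tested. Depth limits the weak Gli2 and Hhip peaks: with all libraries reduced to the 6016500 counts of the smallest, the Gli2 start peak stood at 0.88 on the log2 scale (edgeR adjusted p = 0.0810), while Gli2 summed over the gene kept its call (adjusted p = 0.00104).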

Other observations

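For each of the 7 genes, the 3 genes over 1 Mb away whose summed level followed it most closely over the 7 libraries were listed, out of 22754 with a mean of at least 100 counts. Those nearest to Hhip were Gm5742, Gm16425 and Sgcz, all on chromosome 8, with Pearson r of 0.996, 0.995 and 0.995. Those nearest to Gli2 lay on other chromosomes, with Ankrd6 first (r = 0.993), and Lingo1 came first for Shh (r = 0.994). These are descriptions over 7 libraries that share their deletions and their peak list, picked as the highest of many.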
